A study of Mus musculus with 6 samples.

Results

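The genes described here encode suppressive cytokines and other secreted effector proteins of regulatory T cells (Tregs), the CD4 T cells that restrain immune responses. The members are the array probe sets that the platform's annotation gives to Il10, Tgfb1, Ebi3, Fgl2, Areg, Penk, Lgals1 and Gzmb. It lists 10 of the 45101 probe sets for 7 of these 8 genes, with 2 each for Tgfb1, Fgl2 and Lgals1 and 1 each for Il10, Ebi3, Penk and Gzmb. Areg, the gene of the epidermal growth factor family member amphiregulin, has no probe set listed and is not analysed here.

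The 6 arrays fall into 3 groups of 2. All cells were sorted as CD4+CD25+FoxP3+ by green fluorescence from spleen and lymph nodes of FoxP3-GFP reporter mice on the C57Bl/6 background, 8 to 11 weeks old, and were kept in culture for 18 h. WT vehicle is A2AR+/+FoxP3GFP cells with DMSO, KO vehicle is A2AR-/-FoxP3GFP cells with DMSO, and WT ATL1222 is A2AR+/+FoxP3GFP cells with 10 nM of ATL1222, described in the labels as an agonist selective for A2AR, a receptor for adenosine. Every group carries the reporter, knockout cells with the agonist are not among the samples, and the labels call the cells of both vehicle groups unactivated. They call the replicates biological but name no animals, and the p-values therefore reflect only how far these arrays differ, which may be technical.

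Tregs act on their neighbours partly through what they secrete. IL-10 and TGF-beta 1 are inhibitory cytokines, and the Ebi3 protein pairs with other chains of the IL-12 family to form IL-27 and IL-35. Fgl2 is a fibrinogen-like protein that can be secreted and that dampens antigen-presenting cells, proenkephalin (Penk) is the precursor of opioid peptides, galectin-1 (Lgals1) binds sugars on T cell surfaces, and granzyme B (Gzmb) is a protease of cytotoxic granules. A2AR raises intracellular cAMP, which acts on transcription through protein kinase A and the CREB family.

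The RefSeq promoter table held 5 of the 8 members, Fgl2, Gzmb, Ebi3, Tgfb1 and Areg. Sequence is shown for the pair whose window held the AP-1 motif, a site of the early response factors of T cell activation. For Fgl2 the 250 bases before the RefSeq start lie at chr5:21372423-21372672 on the plus strand of GRCm38.p6, and for Gzmb at chr14:56262335-56262584 on the minus strand. Both are written 5′ to 3′ along the gene, with the AP-1 motif TGANTCA in capitals.
Fgl2: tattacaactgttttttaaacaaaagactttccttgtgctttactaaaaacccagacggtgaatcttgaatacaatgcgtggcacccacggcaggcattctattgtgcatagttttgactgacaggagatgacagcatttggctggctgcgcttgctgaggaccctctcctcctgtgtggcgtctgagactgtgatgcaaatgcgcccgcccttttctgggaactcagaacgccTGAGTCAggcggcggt
Gzmb: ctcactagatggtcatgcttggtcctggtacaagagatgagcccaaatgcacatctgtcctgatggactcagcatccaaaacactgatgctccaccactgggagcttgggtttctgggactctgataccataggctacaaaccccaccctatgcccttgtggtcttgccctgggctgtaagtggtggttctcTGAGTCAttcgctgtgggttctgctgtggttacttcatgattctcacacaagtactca
The motif, found as TGAGTCA, starts 16 bases before the start site in Fgl2 and 58 bases before it in Gzmb. It was present on either strand in 6.75% of the 32851 RefSeq promoter windows of that length. The cAMP response element TGACGTCA (1.55% of all windows), its half-site CGTCA (17.8%, which the full element contains) and the enkephalin form TGCGTCA (1.75%, which also contains the half-site) had no match in the windows of Fgl2, Gzmb, Ebi3 and Tgfb1. The cAMP response element was found in the window of Areg, which has no array values here. The short NFAT core GGAAA, present in 55.6% of all windows, was found in Fgl2, Ebi3 and Areg. A match is a description of letters and not a bound site.

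The labelled cell type was checked against marker genes. The Treg genes Ikzf2 (signals from 6809.9 to 8431), Nrp1 and Ctla4 were bright on every array, while Foxp3, whose reporter the sort used, was dim on its 1 probe set and lay between 7.18 and 53.5. The rest of that list was dimmer: Cd3e gave 1848 to 3068, Il2ra (the CD25 gene) 416 to 613 and Cd4 136 to 488. Between WT ATL1222 and KO vehicle Ctla4 was higher by log2 0.75 ± 0.16 (limma adjusted p = 0.0370). Nrp1 was at -0.40 there (limma adjusted p = 0.369, or 0.0332 with the replicate block). The limit for dim genes used here is a log2 mean of 6.45 over the arrays, a signal of about 71.2, and 10916 genes lay above it. No marker of another cell type was at 0, and the 6 macrophage and monocyte genes, from cells that also express Il10, Ebi3 and Fgl2, summed to 260.3 to 449 on any array. The 6 measured B and plasma cell genes summed to 7091 to 9164 in WT vehicle, 7578 to 7694 in KO vehicle, with 5126 to 5297 in WT ATL1222, and most of that sum was Ighm. Ighm fell with the agonist against WT vehicle by 0.71 ± 0.13 on the log2 scale (limma adjusted p = 0.0445). In that comparison 3 of the 5 tested genes of that list had positive differences, among them Cd79b at 0.20 and Ms4a1 at 0.29. The list's median there was 0.097. Between KO vehicle and WT vehicle Jchain was at log2 -1.74 ± 0.78 and Sdc1 at -0.96 ± 0.42. Neither passed, with the replicate block (limma adjusted p = 0.655 and 0.634) or without it. For Sdc1 both knockout arrays lay below both WT vehicle arrays, whereas for Jchain the groups overlapped. Cd79b, Ms4a1 and Ighm lay between -0.011 and 0.045 in the knockout. Between WT ATL1222 and KO vehicle Jchain was at 1.49 ± 0.78 and Sdc1 at 1.06 ± 0.42 (limma adjusted p = 0.668 and 0.429). Cd79b was at 0.15 and Ms4a1 at 0.30 there, while Ighm was at -0.72 ± 0.13 (limma adjusted p = 0.0139). The 5 naive CD4 T cell genes gave a sum of unlike differences. It was 21558 to 21681 in WT vehicle, 25307 to 26059 in KO vehicle and 21430.2 to 24663 in WT ATL1222. Between WT ATL1222 and KO vehicle Ccr7 rose by log2 0.80 ± 0.14 (limma adjusted p = 0.00949), while Klf2 was at -0.57, Lef1 at -0.41 and Il7r at -0.40, none of which passed without the replicate block (Klf2 and Il7r passed with it). The 7 mast cell, basophil and ILC2 genes summed to 1365 to 1624 in WT vehicle, 1258 to 1446 in KO vehicle, with 1650.4 to 1999 in WT ATL1222, mostly from Rora (log2 0.58 ± 0.19 against KO vehicle, limma adjusted p = 0.283, or 0.0180 with the replicate block), while Kit, Fcer1a and Cpa3 stayed under 50 on every array. The part of these genes in the results below was not tested. In such bulk samples fewer cells of a type and less RNA per cell cannot be told apart.

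With the agonist, the means of 5 of the 6 tested members, Il10 among them, lay above those of WT vehicle. The median log2 difference was 0.54 over the 6, or 0.34 without Il10, and -0.0079 over all genes. In that comparison 0 of 6 members and 0.211% of all genes passed the test. Against receptor-deficient cells 1 member passed, beside 0.999% of all genes: Penk was 2.91-fold higher on the scale of log2(signal + 16). With the replicate number as a block 4 of 6 passed there, Penk, Lgals1, Fgl2 and Il10, beside 2.42% of all genes. Il10 passed the limit for dim genes only through its agonist arrays, and without it the count with the block was 3 of 5. Loss of the receptor alone gave 0 of 6 calls, beside 0.0275% of all genes. Ebi3 and Penk lay lower in both knockout arrays than in both WT vehicle arrays, as did 13.7% of all genes. The Tgfb1 differences were 0.34 or less on the log2 scale. Gzmb was below the limit for dim genes and was not tested.

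Penk, the proenkephalin gene, gave signals of 606 and 389 in WT vehicle (replicates 1 and 2), 368 and 206 in KO vehicle, with 1009 and 690.5 in WT ATL1222. The groups did not overlap: both knockout arrays lay below both WT vehicle arrays, and both agonist arrays above them. That order without overlap was found for 213 of the 10916 genes tested (1.95%). Mean signals were 287 ± 114 (SD, n = 2) in KO vehicle, 497 ± 153 in WT vehicle and 849.7 ± 225 in WT ATL1222.

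Differences between groups were tested with limma across all genes, with Benjamini-Hochberg adjustment at 0.05, and are on the log2(signal + 16) scale. Penk was higher with ATL1222 than in the knockout by 1.54 ± 0.28 SE (limma adjusted p = 0.0150), a contrast in which both genotype and treatment differ. Without the block it was the only one of 6 members called there, against a background of 0.999% of all genes. Its difference within replicate 1 was 1.42 and within replicate 2 it was 1.67. The call was lost without WT ATL1222 replicate 1 (log2 1.27, limma adjusted p = 0.198) and without KO vehicle replicate 2 (log2 1.15, limma adjusted p = 0.115).

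Each step of the order was smaller and did not pass. Between KO vehicle and WT vehicle the Penk difference was -0.78 ± 0.28 (limma adjusted p = 1.00), and within the replicates it was -0.70 and -0.87. Between WT ATL1222 and WT vehicle it was 0.76 ± 0.28 (limma adjusted p = 0.735), and within the replicates it was 0.72 and 0.80. With the replicate number as a block, these adjusted p-values became 0.161 and 0.0558, still above the threshold. Both steps share the WT vehicle arrays.

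**Figure D1:**
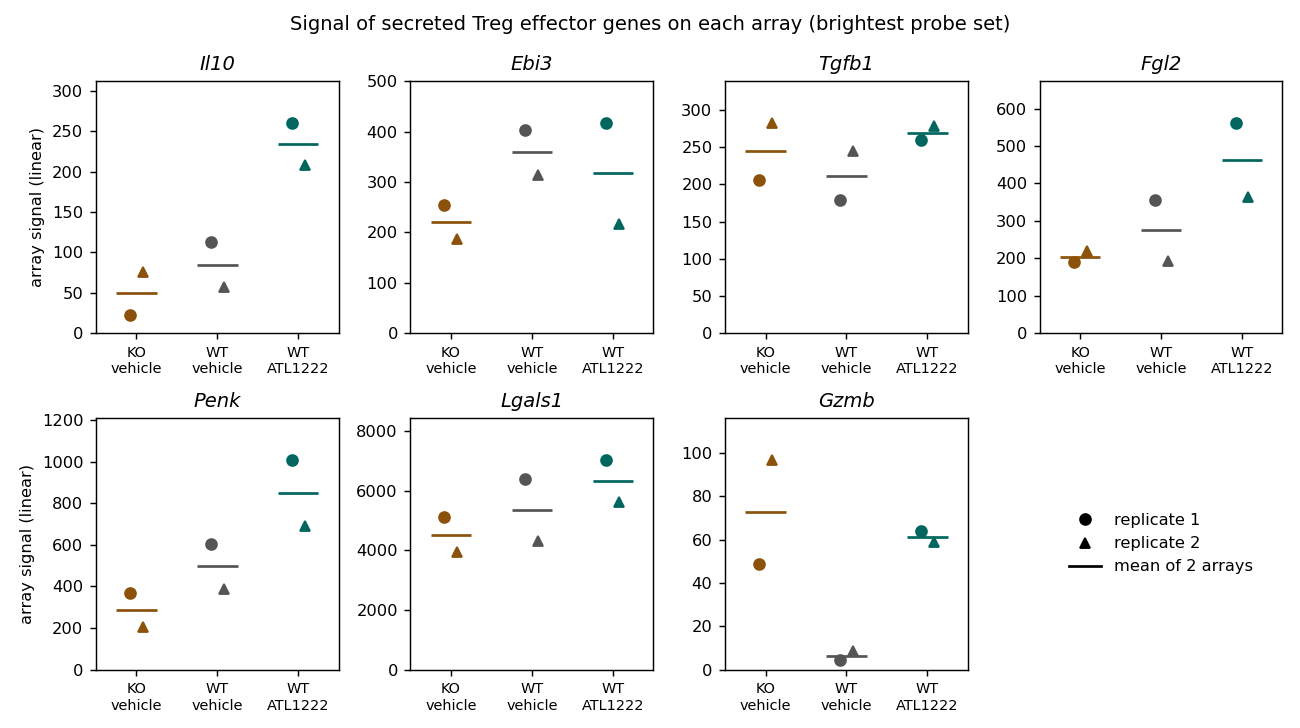
Signal on each array (linear scale from 0, arbitrary array units) for the brightest probe set of the 7 measured genes in KO vehicle, WT vehicle and WT ATL1222; circles are replicate 1, triangles replicate 2 and bars the mean of 2 arrays. Penk steps up from KO vehicle to WT vehicle to WT ATL1222 without overlap, the Il10 signals of 260.2 and 209 with the agonist stand above the other 4, and Gzmb is under 10 in both WT vehicle arrays.

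Among the cytokines, Il10 gave signals of 113 and 56.6 in WT vehicle, 22.1 and 76.2 in KO vehicle, with 260.2 and 209 in WT ATL1222. Both agonist arrays lay above the other 4, and the vehicle groups overlapped. Its log2 mean was 6.82 over all arrays but 6.24 over the 4 vehicle arrays, under the limit of 6.45, so Il10 was tested only because of its agonist arrays and its differences are set against signals near background. Mean signals were 84.8 ± 39.8 (SD, n = 2) in WT vehicle, 49.1 ± 38.3 in KO vehicle, with 234 ± 36.6 in WT ATL1222.

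The Il10 differences had the widest errors of the 6 tested genes. Against WT vehicle the agonist value was higher by log2 1.36 ± 0.48 (limma adjusted p = 0.719). Against KO vehicle the difference was 2.07 ± 0.48 and did not pass (limma adjusted p = 0.0687, or 0.178 with dim genes kept in the fit). It passed with the replicate block (limma adjusted p = 0.0368) and in 6 of 16 alternatives in all, over which the limma adjusted p ran from 0.0231 without KO vehicle replicate 2 to 0.548 without WT ATL1222 replicate 1. The difference itself ran from 1.43 without KO vehicle replicate 1 to 2.71 without KO vehicle replicate 2. The knockout difference from WT vehicle was -0.71 ± 0.48 (limma adjusted p = 1.00), and it was -1.76 within replicate 1 and 0.34 within replicate 2, opposite in sign.

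Ebi3 gave signals of 404 and 313 in WT vehicle, 255 and 187 in KO vehicle, with 417 and 217 in WT ATL1222. Both knockout arrays lay below both WT vehicle arrays, whereas the agonist arrays spanned most of the range of the other groups. The knockout difference was log2 -0.67 ± 0.29 (limma adjusted p = 1.00), with -0.63 and -0.70 within the replicates. The agonist difference from WT vehicle was -0.23 ± 0.29 (95% interval -0.86 to 0.40), so Ebi3 was the 1 tested member with a lower mean with the agonist.

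Tgfb1 gave signals of 179 and 245 in WT vehicle, 206 and 283 in KO vehicle, with 259 and 279 in WT ATL1222 for its brighter probe set. The agonist arrays lay just above WT vehicle and within the range of the knockout. Its 3 log2 differences were between 0.15 and 0.34, each with SE 0.26 and limma adjusted p of 0.955 or more. The 95% interval for agonist against WT vehicle, -0.22 to 0.90, still allows a change of moderate size. The dimmer probe set had signals from 75.4 to 202, and all 3 groups overlapped.

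**Figure D2:**
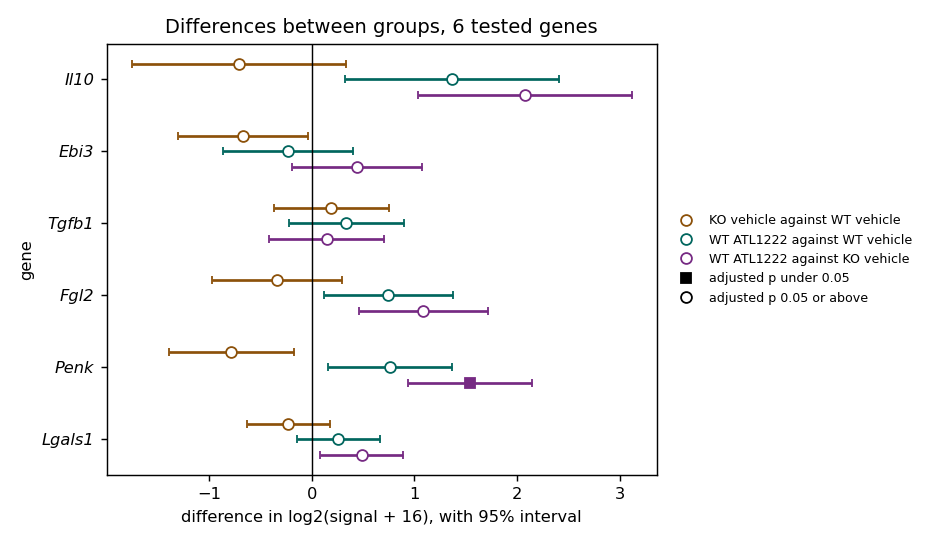
Differences in log2(signal + 16) between groups (x axis) with 95% intervals for the 6 tested genes (y axis) in 3 comparisons; a filled square marks adjusted p under 0.05. Penk in WT ATL1222 against KO vehicle is the only square, at 1.54, and Il10 has the widest intervals.

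Fgl2 gave signals of 357 and 192 in WT vehicle, 191 and 219 in KO vehicle, with 562 and 363 in WT ATL1222 for its brighter probe set. Both agonist arrays lay above the other 4, although WT vehicle replicate 1 came close to the lower one. The agonist difference was log2 0.75 ± 0.29 against WT vehicle (limma adjusted p = 0.819) and 1.09 ± 0.29 against KO vehicle (limma adjusted p = 0.137). With the replicate block the second passed (limma adjusted p = 0.0390), one of 3 of 17 alternatives in which it did, the others being without WT vehicle replicate 2 (0.0479) and with only the 4 arrays compared (0.0465). Without WT ATL1222 replicate 1 the difference was 0.78 (limma adjusted p = 0.835). The knockout difference was -0.34 ± 0.29 (limma adjusted p = 1.00), and its sign turned without WT vehicle replicate 1, at 0.080. The dimmer Fgl2 probe set showed the same direction in each comparison, with agonist signals of 117 and 100.3 against 83.1 and 60.5 in WT vehicle and 92.9 and 34.8 in KO vehicle.

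Lgals1 was bright on all arrays by both probe sets. The brighter one gave signals of 6402 and 4317 in WT vehicle, 5124 and 3939 in KO vehicle, with 7043 and 5634 in WT ATL1222. The agonist arrays lay above both knockout arrays and overlapped WT vehicle, and replicate 1 exceeded replicate 2 in every group. The agonist difference from KO vehicle was log2 0.49 ± 0.19 (limma adjusted p = 0.420). With the replicate block the SE fell to 0.10 and the gene passed (limma adjusted p = 0.0161), the only one of 17 alternatives in which it did. Against WT vehicle the difference was 0.26 ± 0.19 (limma adjusted p = 0.998), and the dimmer probe set gave 0.34 ± 0.18, with agonist signals of 3066 and 2980.2 above 2828 and 2012 in WT vehicle. Against KO vehicle the dimmer probe set gave 0.36 ± 0.18 in the fit with every probe set (limma adjusted p = 0.846). The knockout difference from WT vehicle was -0.23 ± 0.19 for the brighter probe set and -0.021 ± 0.18 for the dimmer one, and neither passed.

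**Figure D3:**
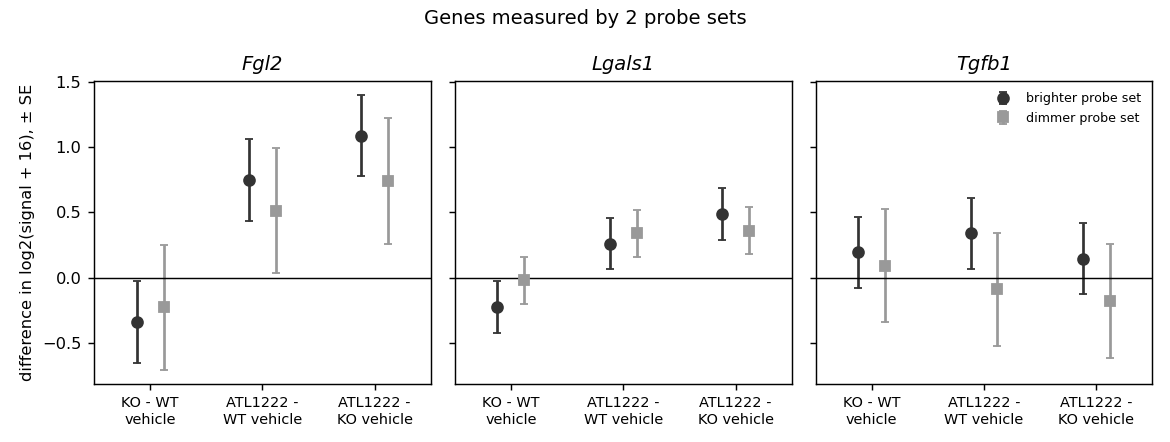
Differences in log2(signal + 16) ± SE (y axis) in 3 comparisons (x axis) for the brighter (black circles) and dimmer (grey squares) probe sets of Fgl2, Lgals1 and Tgfb1, from the fit with every probe set tested. Both probe sets of Fgl2 and of Lgals1 lie above 0 in the agonist comparisons, whereas those of Tgfb1 lie on opposite sides of it.

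Gzmb gave signals of 4.51 and 8.62 in WT vehicle, 48.6 and 96.9 in KO vehicle, with 64.1 and 58.8 in WT ATL1222. Both WT vehicle arrays were lower than the other 4, but 5 of 6 signals were below the limit for dim genes. The WT vehicle signals were also below the 16 added before taking logs, so no difference is given for Gzmb. The CD8 T and NK cell markers, cells that also express Gzmb, summed over 6 measured genes to 492 to 647 in WT vehicle, 587 to 703 in KO vehicle, with 467 to 561 in WT ATL1222. These sums hold unlike patterns. Cd8b1 gave 118.7 and 118.4 in WT vehicle, 249 and 184 in KO vehicle, with 169 and 139 in WT ATL1222. The means of Nkg7, Cd8a and Eomes were highest in WT vehicle, and Ncr1 and Klrd1 were at most 61.7 on any array. The part of these markers in the Gzmb signal was not tested.

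The counts of members are given here beside the shares of all genes. The members were chosen with earlier results of these data known, so the counts do not measure an enrichment. Between KO vehicle and WT vehicle, limma called 0 of 6 tested members, and 2 (Penk and Ebi3) had an unadjusted p under 0.05, where 3.89% of all genes did. Of all genes 0.0275% were called, or 0.0824% with the replicate block, which also called 0 members. Between WT ATL1222 and WT vehicle, limma called 0 of 6, and 3 (Il10, Penk and Fgl2) had an unadjusted p under 0.05, against 5.03% of all genes. Of all genes 0.211% were called there, or 0.724% with the block, which called 0 members. Between WT ATL1222 and KO vehicle, limma called 1 of 6, or 4 of 6 with the replicate block (Penk, Lgals1, Il10 and Fgl2), where 2.42% of all genes passed with the block. An unadjusted p under 0.05 was found for 4 of 6 members and 8.48% of all genes. The agonist counts hold Il10, which was tested only because of its agonist arrays. Without it an unadjusted p under 0.05 was found for 2 of 5 members against WT vehicle and 3 of 5 against KO vehicle. With the replicate block 3 of 5 then passed against KO vehicle.

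Groups without overlap were common among all genes with 2 arrays a group. Signals were higher with ATL1222 than in WT vehicle without overlap for 4 of 6 members and for 14.5% of all genes. They were higher than in KO vehicle for 4 of 6 members and 17.4% of all genes. They were lower in the knockout than in WT vehicle for 2 of 6 members and 13.7% of all genes. The median log2 difference over the 6 tested members was -0.50 in the knockout (0.0048 over all genes), 0.54 with the agonist against WT vehicle (-0.0079) and 0.79 against the knockout (-0.022). These figures leave out Areg and Gzmb and hold Il10, which passed the limit for dim genes only through its agonist arrays. Over the other 5 members the medians were -0.34, 0.34 and 0.49, groups did not overlap for 2, 3 and 3 of 5 in the same directions, and 3 of 5 passed between WT ATL1222 and KO vehicle with the replicate block.

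Genes that act with the members were followed in 9 lists with 120 genes on the array, of which 67 lay above the limit for dim genes. Against WT vehicle limma called 0 of the 67 in the knockout, where 5 of them and 3.89% of all genes had an unadjusted p under 0.05. With the agonist it called 0 against WT vehicle, where 9 of them and 5.03% of all genes had an unadjusted p under 0.05. The replicate block called 3 of the 67 there, and 0.724% of all genes. Between WT ATL1222 and KO vehicle 5 rose and 0 fell, which is 7.46% of the 67 where 0.999% of all genes were called, and with the replicate block 6 were called where 2.42% of all genes were. The lists are small and were chosen with earlier results of these data known, so these shares do not measure an enrichment. The counts for each list below are set beside the shares of the same comparison. The median difference of the 67 in that comparison was 0.016, against -0.022 over all genes.

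Of 15 tested genes of the IL-10 receptor and of IL-10 regulators, 3 were higher with the agonist than in the knockout. Bhlhe40, a transcription factor known to repress Il10 in helper T cells, was higher by log2 1.38 ± 0.20 (limma adjusted p = 0.00270). Stat3, which carries the signal of the IL-10 receptor, was higher by 1.06 ± 0.15 (limma adjusted p = 0.00191). Maf, which promotes Il10 transcription, was higher by 1.04 ± 0.21 (limma adjusted p = 0.0286). Of these, Stat3 and Bhlhe40 also passed against WT vehicle with the replicate block (limma adjusted p = 0.00333 and 0.0425), but not without it (0.0809 and 0.336).

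Of 9 tested genes of TGF-beta latency and activation, 1 was higher with the agonist than in the knockout: Itgav, the integrin subunit that takes part in releasing active TGF-beta, by log2 0.94 ± 0.18 (limma adjusted p = 0.0213). Of 12 tested genes of granule cytotoxicity, 1 was higher: Stx11, which encodes a syntaxin needed for granule release, by 1.08 ± 0.19 (limma adjusted p = 0.0126). With the block Stx11 also passed against WT vehicle (limma adjusted p = 0.0334), where without it the value was 0.150.

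The other lists had 0 calls in this comparison by limma without the block. Of 6 partners and receptors of the Ebi3 family, Stat4 had the smallest p, at log2 0.65 ± 0.16 (limma adjusted p = 0.0901, or 0.00652 with the replicate block, a call). Of 6 genes of a list of the epidermal growth factor family, the proteases that shed it and receptors, which also holds the interleukin receptor gene Il18r1, the receptor gene Erbb3 was at -0.43 ± 0.18. Of 4 opioid genes, Cpe, a carboxypeptidase that trims prohormones, was at 1.14 ± 0.42. Of 10 galectins and their ligands, Cd7 was at -1.52 ± 0.48, and of 4 effector T cell cytokines, Csf1 was at 0.67 ± 0.30. The only tested gene of the fibrinogen-like list, the Fc receptor gene Fcgr2b, was at -0.43 ± 0.36. The limma adjusted p of these last 5 genes lay between 0.253 and 0.857. Each of these 5 lists had 1 gene with an unadjusted p under 0.05 except the fibrinogen-like list, which had 0.

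**Figure D4:**
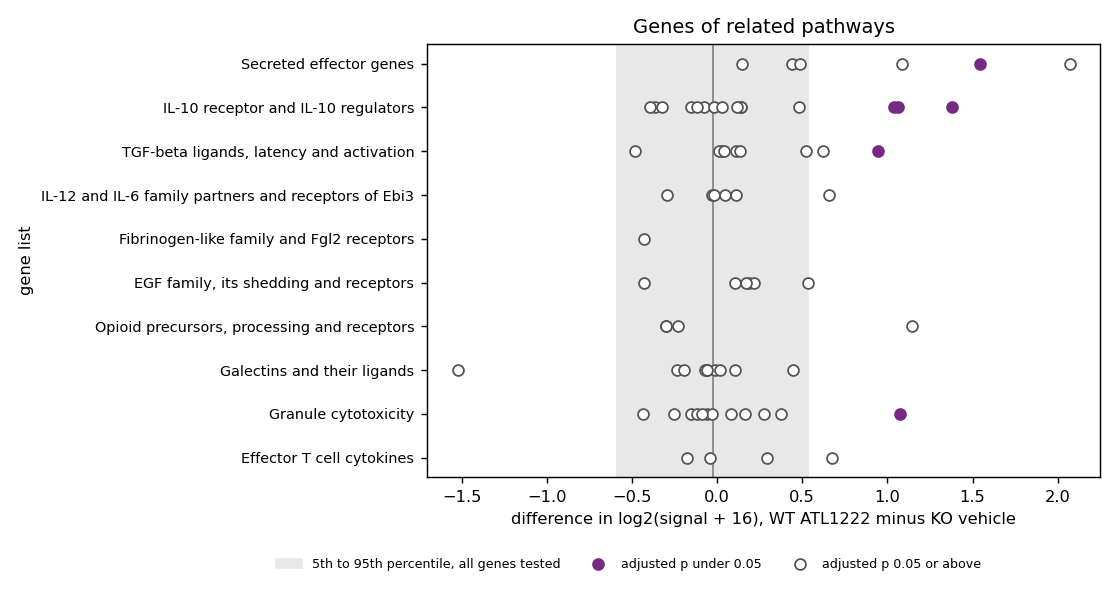
Differences in log2(signal + 16) between WT ATL1222 and KO vehicle (x axis) for the tested genes of each list (y axis); filled points have adjusted p under 0.05 and the grey band spans the 5th to 95th percentile of all genes tested, -0.59 to 0.53. The filled points are Penk, then Bhlhe40, Stat3 and Maf, Itgav, and Stx11, all to the right of the band.

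The genes whose pattern over the 6 arrays was most like each member's were found by Euclidean distance between centred log2 values. For Penk they were Dusp1, a phosphatase of MAP kinases, at 0.35, Ctla2b at 0.36 and Bhlhe40 at 0.47, where the median distance over all genes was 1.81. For Il10 they were Cables1, Vopp1 and Dgat1 at 0.90 to 0.97 (median 2.45). The distance grows with the spread of a member's own values over the arrays, so it is not compared between members. For Fgl2 they were Ell2 at 0.15, the transcription factor gene Runx3 at 0.35 and Fancf at 0.36 (median 1.43). For Lgals1 they were Acot9, Emd and Akirin2 at 0.08 to 0.12 (median 0.85), for Ebi3 Ddx43, Marchf3 and Cd22 at 0.23 to 0.29 (median 1.11), and for Tgfb1 A930006K02Rik, Pdpr and Ppp2r1b at 0.10 to 0.18 (median 0.79). The 6 arrays share their scaling and replicate numbers, and the distance is a description only.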

How the data were processed

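The authors deposited linear array intensities made with GCOS, per the submitters' processing notes. Its version is not given in the sources used here, nor is its algorithm. Each array had the same mean, 250.0, after leaving out the top and bottom 2% of probe sets, and this scaling was kept. Median signals ran from 74.7 to 98.2. Of 45101 probe sets, 64 were controls, 34945 carried 1 symbol by the platform's annotation, 932 several and 9160 none. Symbols were updated by Entrez identifier (34741 matched RefSeq, GRCm38.p6). For each of 18193 genes the probe set brightest by mean log2(signal + 16) was used, and the lowest 40% of genes were left out. limma 3.58.1 in R 4.3.3 fitted all 6 arrays with a variance trend. The fit was tried on simulated data for WT ATL1222 against WT vehicle. In these data the spreads of all 18193 genes, dim ones included, were shuffled among genes, which removes the trend of spread with signal. There the fit recovered 37% of changes of log2 2 and 56% of changes of log2 3. These shares therefore do not measure the power of the fit on the real arrays. A gene that did not pass may still differ. A second fit held every probe set. An exact test of 2 arrays against 2 cannot reach a two-sided p below 0.33. Named genes were all members, list genes past the threshold or with the smallest p of their list, and the 3 nearest patterns of each member. Members and lists were chosen with earlier results of these data known. Same-numbered replicates deviated together (r across 10916 genes 0.230, 0.230 and 0.147 between groups). Values with the replicate number as a block are therefore given where they change a call of a member or of a gene that acts with the members. For cell type markers they are given only in the comparisons described. The labels give the numbers and do not say that they mark a shared batch. Values of the targeted gene are not reported here, and the knockout label was not checked by them.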

Additional observations from a re-analysis of the deposited data

How the results depend on the processing

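The fits limit what can be said: with 2 arrays a group the median SE of a log2 difference was 0.23, and signals near 71.2 carry little information. The 6 tested members kept their direction in 294 of 303 combinations of gene, comparison and alternative. Many of these, such as another filter, no variance trend or the replicate block, leave the log2 difference itself unchanged and could not reverse it. The share is therefore no measure of stability. Of the 9 reversals, 8 came from leaving out 1 array. Between WT ATL1222 and KO vehicle the 1 member called became 2 with a pseudocount of 64, 0 with probe sets averaged, 0 when probe sets were tested one by one, 0 with no variance trend, 4 with the replicate block, 3 with only the 4 arrays compared, and 0 to 3 when 1 array was left out (0 without WT ATL1222 replicate 1, 2 without WT vehicle replicate 1, 3 without WT vehicle replicate 2). Over these alternatives the limma adjusted p of Penk there ran from 1.09e-04 to 0.350, with 12 of 17 past the threshold. The count stayed at 0 members in both comparisons with WT vehicle under every alternative run, and the replicate block changed no call of a member other than those given for Il10, Fgl2 and Lgals1. Averaging probe sets, which tests another value for each gene, turned Tgfb1 to -0.016 between WT ATL1222 and KO vehicle. Leaving out 1 array turned the sign of small differences, with ranges of -0.019 to 0.41 (Tgfb1), -0.76 to 0.080 (Fgl2) and -0.51 to 0.057 (Lgals1) in the knockout, -0.023 to 0.54 (Lgals1) and -0.68 to 0.22 (Ebi3) for the agonist against WT vehicle, and -0.067 to 0.36 (Tgfb1) and -0.011 to 0.89 (Ebi3) for the agonist against the knockout; the cause was not tested. The count over all genes in the knockout, 3, became 0 with probe sets averaged, tested separately or with no trend, 9 with the block, and 3 to 7 with 1 array left out. The agonist count of 23 became 14 with no filter on dim genes, 36 with 60% left out, 3 with probe sets averaged, 9 tested separately, 35 after cyclic loess, 0 with no trend, 79 with the block, 44 with 4 arrays, and 5 to 39 with 1 array left out. The count of 109 between WT ATL1222 and KO vehicle became 70 with no filter, 44 with probe sets averaged, 5 with no trend, 264 with the block, and 42 to 133 with 1 array left out.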

Other observations

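Some partners of the members were measured as well, and are named here after their values were seen. Il12a, whose protein joins that of Ebi3 in IL-35, gave signals from 68.4 to 164 over the 6 arrays, with differences between groups of log2 -0.03 to -0.28. Itgb8, the integrin subunit that pairs with the Itgav product to release TGF-beta, gave 944 and 613 in WT ATL1222 against 587 and 450 in WT vehicle and 482 and 570 in KO vehicle. It did not pass against WT vehicle (log2 0.55 ± 0.22, limma adjusted p = 0.863). The receptor chain genes Il10ra (203 to 300.3) and Il10rb (1283 to 1642) were measured in all groups without a call. Prf1, which encodes the pore-forming protein that lets granzymes into target cells, gave 187 and 200.2 in WT ATL1222 and 94.1 and 162 in WT vehicle, with 91.0 and 228 in KO vehicle. Of 16 effector T cell cytokine genes on the array, 12 were below the limit for dim genes.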
